A study of Mus musculus with 12 samples.

Results

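The mRNAs of hnRNP proteins, of SR proteins and of a few related splicing regulators were followed in 4T1 cells, a mouse mammary carcinoma line, whose polysomal RNA and lighter, sub-polysomal RNA were sequenced apart. Members were taken by gene symbol. They are the genes whose name begins with Hnrnp or with Srsf and a digit, together with Khsrp, Ptbp1, Ptbp2, Ptbp3, Tra2a, Tra2b and Elavl1, without names holding -ps. The rule gave 38 of the 55376 genes listed, which were 20 hnRNP genes, 11 SR genes and 7 others. A total of 37 members had at least 1 CPM, a count scaled to the size of its library, in at least 3 libraries and were tested among 12224 genes. Srsf12 had no count in any of the 12 libraries, and a count of 0 allows up to 1.65 CPM in the shallowest of them and up to 0.431 CPM in the deepest.

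RNA-Seq was performed on 4 groups of 3 libraries. Mock 4T1 cells are the vector control, and METTL7A1 cells carry a stable transgene of the whole Mettl7a1 cDNA under a CMV promoter, kept by G418 selection. Mettl7a1 encodes a methyltransferase-like protein. All cells had received cycloheximide, which holds ribosomes on mRNA, at 0.1 mg/ml for 5 min before lysis, and cytoplasmic extracts were resolved on sucrose gradients. Fractions 3 to 7, with free subunits and monosomes, were pooled as sub-polysomal RNA, and fractions 8 to 11 were pooled as polysomal RNA. The mock libraries carry the letters A to C and the METTL7A1 libraries D to F, so that anything shared by the preparations of 1 genotype cannot be told apart from the genotype. The study describes its polysome profiles as coming from biological triplicates, but it is not given in the sources used here whether the letters of these libraries are those triplicates or whether each line is 1 clone. The p-values then measure only the spread between these libraries.

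hnRNP proteins coat nascent pre-mRNA and many of them repress the use of nearby splice sites or exons. SR proteins bind exonic enhancers through an RNA recognition motif and recruit the spliceosome through a tail rich in arginine and serine, and they often act against hnRNP proteins on the same exon. Many of both kinds shuttle to the cytoplasm, where they take part in mRNA export, translation and decay. Several of these genes adjust their own protein level through exons or introns whose use exposes the mRNA to nonsense-mediated decay, a surveillance pathway coupled to translation.

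The coding sequences told the families apart. Arginine codons next to serine codons occurred at least 10 times in 10 of 11 SR genes, with a median of 41 and a range from 9 in Srsf9 to 106 in Srsf4. Among the 20 hnRNP genes the median was 4, and 2 genes, Hnrnpdl and Hnrnpul2, reached 10. Of 10807 protein-coding genes tested, 15.3% reached it. Glycine codons, which are frequent in the flexible tails of many hnRNP proteins, were 13.0% of the codons of the median hnRNP gene, 7.43% of the median SR gene and 6.24% of the median protein-coding gene tested. The stretches of 10 codons below show such tails in 6 members of high level or large change, from the principal GENCODE transcript on GRCm38, with codons of an arginine-serine pair (SR) or glycine codons (hnRNP) in capitals. They lie in coding exons.
Srsf1, chr11:88049469-88049498, + strand, exon 4 of 4: AGATCTCGATCTCGAAGCCGTAGTCGTAGC
Srsf2, chr11:116852286-116852315, - strand, exon 2 of 3: CGCAGCCGATCTCGAAGCCGGAGTCGGTCC
Srsf9, chr5:115332624-115332653, + strand, exon 4 of 4: ggctacTCACGGTCGCGGTCTgggTCCAGG
Hnrnpa1, chr15:103243047-103243076, + strand, exon 8 of 11: GGAGGAGGCGGAGGCGGCtttGGCGGTGGT
Hnrnpa2b1, chr6:51464489-51464518, - strand, exon 8 of 11: GGAGGAGGAagaGGAGGAtatGGTGGTGGA
Hnrnpa3, chr2:75663648-75663677, + strand, exon 8 of 11: GGTGGTGGAtatGGTGGTGGAGGAGGAGGC
The window of Srsf1 consisted of paired arginine and serine codons throughout, whereas that of Srsf9, the SR gene with the fewest such pairs, was interrupted.

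Libraries held 1817520 to 6966156 counts, the mock sub-polysomal library A being the shallowest. The epithelial markers Epcam, Krt8, Krt18 and Cdh1 had 402 to 13694 counts per library, whereas the leukocyte genes Ptprc, Cd3e and Cd79a and the endothelial genes Pecam1 and Cdh5 had 0 to 4. Mettl7a1 lay between 1.26 and 3.28 CPM in the 6 mock libraries and between 236 and 395 CPM in the 6 METTL7A1 libraries. Mitochondrial transcripts took 4.37 to 8.49% of the counts of sub-polysomal libraries and 0.684 to 2.14% of polysomal libraries, and the nuclear RNA Neat1 was lower in polysomal RNA (log2 change of -1.95 in mock and -1.90 in METTL7A1 cells). The part of either in the differences between pools was not tested. CPM values are scaled by TMM factors, and as shares of a library they cannot tell less of an mRNA from more of other RNAs.

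Levels between genes were compared per length, as TPM, the share of a library after each count is divided by the exon length of its gene. In mock polysomal RNA the most abundant members were Hnrnpab at 1168 ± 208 TPM (SD, n = 3) and Hnrnpa2b1 at 984 ± 290.02, which did not differ beyond their spread. Hnrnpa1, the best known A/B-type hnRNP, followed at 621 ± 134. The highest SR mRNAs were Srsf2, which encodes the speckle protein SC35, at 464 ± 124 TPM, Srsf3 at 381 ± 73.7 and Srsf9 at 369.98 ± 24.8, which also lay within their spread. At the lower end stood Hnrnph2 at 10.6 ± 2.35, Ptbp2, the form known from neurons, at 8.05 ± 3.74, and Hnrnpr at 6.70 ± 2.53 TPM. The place of Hnrnpr depends on its exon length of 21483 bases, the longest of the members. Without division by length its mean in these libraries was 60.1 CPM, above Hnrnph2 at 19.5 and Ptbp2 at 16.9 CPM.

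The first comparison asked how these mRNAs were divided between polysomal and sub-polysomal RNA. A larger share of hnRNP than of SR mRNAs was higher in polysomal RNA in both kinds of cells. In mock cells 11 of 20 hnRNP mRNAs were higher in polysomal RNA and 1 was lower, while 1 of 10 SR mRNAs was higher and 2 were lower (edgeR quasi-likelihood test, adjusted p below 0.05). Of all genes tested, 23.3% were higher and 23.7% lower by the same rule. In METTL7A1 cells 16 of 20 hnRNP mRNAs were higher and none lower, against 4 of 10 SR mRNAs higher and 1 lower, with 30% of all genes higher and 29.3% lower. The median log2 change of polysomal over sub-polysomal RNA was 0.59 for hnRNP and -0.07 for SR mRNAs in mock cells, and 0.91 and 0.22 in METTL7A1 cells. Over all genes tested the median was 0.05 in mock and 0.06 in METTL7A1 cells. The hnRNP median thus exceeded the SR median by 0.66 and 0.69, a difference between families that is described here without a test. Values of the mock and METTL7A1 cells come from different libraries, and across the 37 members their log2 changes had a Spearman rho of 0.80 (0.84 across all 12224 genes, which are not independent replicates).

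**Figure D1:**
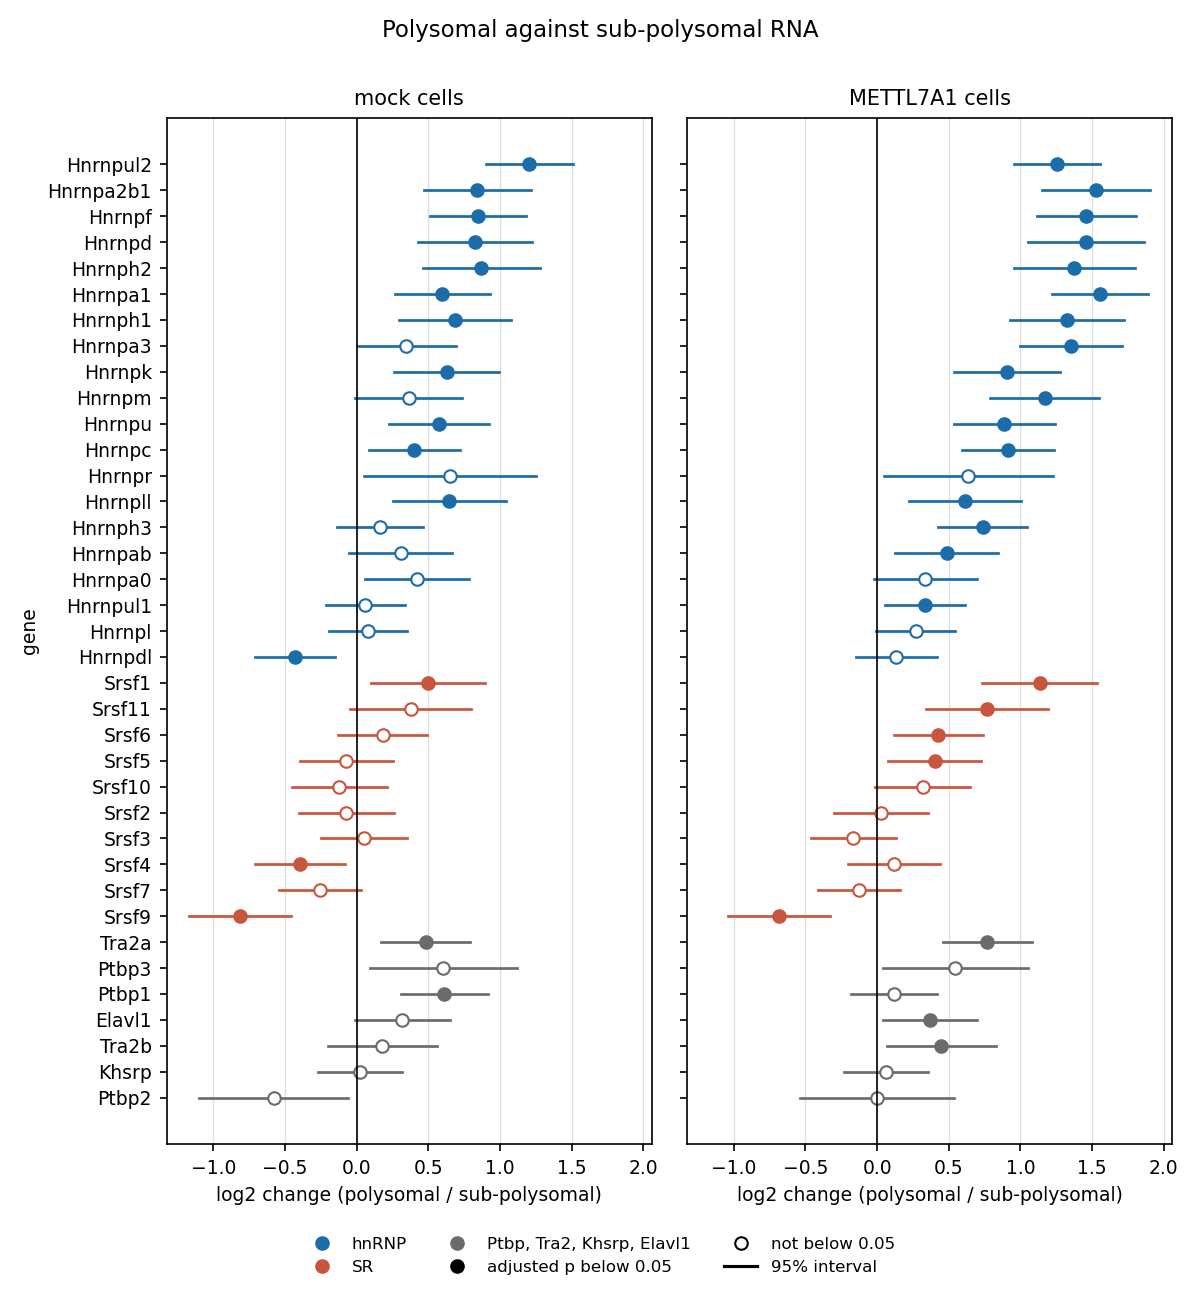
Log2 change of polysomal over sub-polysomal RNA (x axis) for each of the 37 members tested (y axis), in mock cells (left) and METTL7A1 cells (right). Points are fitted values from 3 libraries per group, filled where the adjusted p was below 0.05, lines are 95% intervals, and colours mark the families: hnRNP points lie above 0, except Hnrnpdl in mock cells, whereas SR points lie on both sides of it, with Srsf9 lowest in both panels.

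Among the hnRNP U type, named after a protein of the nuclear scaffold, Hnrnpul2 had the largest change of all members in mock cells. It read 95.9, 70.8 and 81.3 CPM in mock sub-polysomal libraries A to C and 217, 172 and 179 CPM in the polysomal ones. In METTL7A1 libraries D to F it read 76.3, 67.7 and 79.6 CPM in sub-polysomal and 182, 185 and 167 CPM in polysomal RNA. The pools were far apart in both kinds of cells, with log2 changes of 1.21 ± 0.15 (SE, adjusted p = 4.2e-06) and 1.26 ± 0.14 (SE, adjusted p = 9.5e-07). Hnrnpu, the scaffold attachment factor, was higher in polysomes as well (0.57 and 0.89), and its relative Hnrnpul1 passed the test in METTL7A1 cells (0.33) with a value of 0.06 in mock cells.

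The A/B-type proteins package pre-mRNA and bind many 3' splice sites, and they include the most abundant hnRNPs. Hnrnpa2b1 read 699.8, 465 and 523 CPM in sub-polysomal and 1219.8, 992 and 805 CPM in polysomal RNA of mock cells. In METTL7A1 cells the values were 343, 326 and 329.7 CPM in sub-polysomal and 982, 1008 and 888 CPM in polysomal RNA. The groups did not overlap in either kind of cells, and the log2 changes were 0.84 ± 0.18 (SE, adjusted p = 0.00081) in mock and 1.53 ± 0.18 (SE, adjusted p = 1.3e-06) in METTL7A1 cells. Hnrnpa1 read 369.6, 269 and 358 CPM in sub-polysomal and 572, 489 and 448 CPM in polysomal RNA of mock cells. METTL7A1 cells had 165, 169 and 165 CPM (sub-polysomal) and 529, 513 and 423 CPM (polysomal), so that the sub-polysomal libraries were low and close to each other. Its log2 changes were 0.60 ± 0.16 (SE, adjusted p = 0.0042) and 1.55 ± 0.16 (SE, adjusted p = 3.1e-07). Hnrnpd, also called AUF1, which binds AU-rich elements and takes part in mRNA decay, read 235, 138 and 120.02 CPM in sub-polysomal and 328, 279.6 and 256 CPM in polysomal RNA of mock cells. METTL7A1 cells had 84.6, 92.3 and 88.9 CPM (sub-polysomal) and 245, 243 and 244 CPM (polysomal), and the changes were 0.83 ± 0.19 (SE, adjusted p = 0.0016) and 1.46 ± 0.19 (SE, adjusted p = 4.4e-06). Its close relative Hnrnpdl went the other way in mock cells.

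Hnrnpdl was the only hnRNP mRNA that was lower in polysomes. It read 288, 275 and 249.5 CPM in mock sub-polysomal and 212, 215 and 175 CPM in mock polysomal libraries. The sub-polysomal libraries were all higher, with a log2 change of -0.43 ± 0.13 (SE, adjusted p = 0.013). The METTL7A1 pools had 153, 173 and 184 CPM (sub-polysomal) and 185, 185 and 189 CPM (polysomal), a change of 0.13 ± 0.13 (SE, adjusted p = 0.41). The other A/B-type members were Hnrnpa3, Hnrnpab and Hnrnpa0. Hnrnpa3 had 0.35 ± 0.17 (SE, adjusted p = 0.092) in mock and 1.35 ± 0.17 (SE, adjusted p = 2.3e-06) in METTL7A1 cells, and Hnrnpab had 0.31 ± 0.17 (SE, adjusted p = 0.15) and 0.49 ± 0.17 (SE, adjusted p = 0.021). Hnrnpa0 did not pass the test in either (0.42 and 0.34).

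The F/H type, which bind runs of guanines, were higher in polysomes throughout METTL7A1 cells (4 of 4) and in 3 of 4 cases in mock cells. Hnrnpf read 45.1, 37.5 and 32.4 CPM in mock sub-polysomal and 77.8, 56.8 and 68.1 CPM in mock polysomal libraries. In METTL7A1 cells it read 19.9, 23.1 and 23.4 CPM (sub-polysomal) and 57.7, 68.1 and 57.8 CPM (polysomal). No polysomal library overlapped a sub-polysomal library of the same cells, and the log2 changes were 0.85 ± 0.16 (SE, adjusted p = 0.00031) and 1.46 ± 0.17 (SE, adjusted p = 8.0e-07). Hnrnph2, an X-linked gene of low level, read 13.0, 9.13 and 10.7 CPM in mock sub-polysomal and 22.5, 17.5 and 18.5 CPM in mock polysomal libraries. Its METTL7A1 values were 4.97, 7.69 and 8.37 CPM (sub-polysomal) and 20.4, 17.1 and 18.4 CPM (polysomal), and its changes were 0.87 ± 0.19 (SE, adjusted p = 0.0013) and 1.38 ± 0.20 (SE, adjusted p = 1.4e-05). Hnrnph1 changed by 0.68 and 1.32. Hnrnph3 passed the test in METTL7A1 cells (0.74), with 0.16 in mock cells.

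Hnrnpm encodes a protein that binds GU-rich RNA and that the study lists among the partners of METTL7A1. Its mRNA read 187, 141 and 116 CPM in sub-polysomal and 242, 166 and 158 CPM in polysomal RNA of mock cells. The groups overlapped, and the change of 0.36 ± 0.18 (SE, adjusted p = 0.10) did not pass the test. In METTL7A1 cells the values were 94.2, 97.5 and 90.1 CPM (sub-polysomal) and 195, 228 and 211 CPM (polysomal), and the change was 1.17 ± 0.18 (SE, adjusted p = 2.3e-05). Of the exon bases of Hnrnpm, 28.6% are shared with March2 on the same strand, so that reads there may have been assigned to either gene or to none. The remaining hnRNPs were Hnrnpk, which binds C-rich RNA, Hnrnpc, which binds uridine runs, Hnrnpl and Hnrnpll, which bind CA repeats, and Hnrnpr. Hnrnpk (0.63 and 0.90), Hnrnpc (0.40 and 0.91) and Hnrnpll (0.65 and 0.61) were higher in polysomes of both kinds of cells. Hnrnpl (0.08 and 0.27) and Hnrnpr (0.65 and 0.64) did not pass the test.

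Of the SR mRNAs, 4 of 10 had a log2 change above 0 in mock cells, against 19 of 20 hnRNP mRNAs and 6452 of all 12224 genes tested. Srsf1, also called ASF/SF2, read 446, 278 and 378 CPM in mock sub-polysomal and 645, 541 and 369.7 CPM in mock polysomal libraries, which overlapped. In METTL7A1 cells it read 224, 234 and 235 CPM (sub-polysomal) and 509.7, 498 and 513 CPM (polysomal), with no overlap. Its log2 changes were 0.50 ± 0.19 (SE, adjusted p = 0.037) and 1.13 ± 0.19 (SE, adjusted p = 6.0e-05), and it was the only SR mRNA higher in polysomes of both. The call in mock cells was lost without mock letter A or B and in several other settings. Srsf9 read 396, 345 and 237 CPM in mock sub-polysomal and 155, 196 and 202 CPM in mock polysomal libraries. In METTL7A1 cells the values were 260.3, 257 and 247 CPM (sub-polysomal) and 145, 157 and 173 CPM (polysomal). All polysomal libraries were below the sub-polysomal ones, with changes of -0.82 ± 0.17 (SE, adjusted p = 0.00069) and -0.69 ± 0.17 (SE, adjusted p = 0.0019), so that among members tested Srsf9 was the only one called lower in polysomes in both kinds of cells. With offsets for GC content its change in METTL7A1 cells was -0.37 and did not pass.

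Srsf4 read 45.1, 57.3 and 43.0 CPM in mock sub-polysomal and 36.9, 36.1 and 37.5 CPM in mock polysomal libraries, a change of -0.40 ± 0.15 (SE, adjusted p = 0.036). In METTL7A1 cells it read 37.1, 33.5 and 28.0 CPM (sub-polysomal) and 32.3, 38.9 and 35.2 CPM (polysomal), where the pools overlapped (0.12 ± 0.15 SE, adjusted p = 0.52). Of its exon bases, 67.9% lie opposite to Gm12992, a gene with 61 counts in all libraries against 2427 of Srsf4. Smaller overlaps on the opposite strand concern Hnrnpab, Hnrnpf and Ptbp1. Srsf11, Srsf6 and Srsf5 passed the test in METTL7A1 cells only, and whether they differed between the cells is given by the test of the shift. Srsf11 read 49.7, 79.9 and 84.4 CPM in sub-polysomal and 132, 118 and 116 CPM in polysomal METTL7A1 libraries, a change of 0.77 ± 0.20 (SE, adjusted p = 0.0033) beside 0.38 in mock cells. Srsf6 read 244, 299 and 318 CPM (sub-polysomal) and 365, 397 and 396 CPM (polysomal) (0.43 ± 0.15 SE, adjusted p = 0.018, with 0.18 in mock cells). Srsf5 read 87.9, 82.1 and 90.1 CPM (sub-polysomal) and 114, 113 and 117 CPM (polysomal) (0.40 ± 0.16 SE, adjusted p = 0.032, with -0.07 in mock cells). Srsf7, Srsf3, Srsf2 and Srsf10 did not pass the test in either, and lay between -0.26 (Srsf7) and 0.05 (Srsf3) in mock cells and between -0.17 (Srsf3) and 0.32 (Srsf10) in METTL7A1 cells, with Srsf2 at -0.07 and 0.03.

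The 7 other members were split. Ptbp1, the pyrimidine tract binding protein, read 261, 322 and 278 CPM in mock sub-polysomal and 469, 416 and 430.2 CPM in mock polysomal libraries, a log2 change of 0.61 ± 0.14 (SE, adjusted p = 0.0020). In METTL7A1 cells it read 513, 469 and 479 CPM (sub-polysomal) and 474, 595 and 515 CPM (polysomal), where the pools overlapped (0.12 ± 0.14 SE, adjusted p = 0.50). Tra2a, an SR-like splicing activator, read 143, 101 and 137 CPM (sub-polysomal) and 201, 179.6 and 151 CPM (polysomal) in the pools of mock cells and 87.9, 91.8 and 91.3 CPM (sub-polysomal) and 158, 147 and 157 CPM (polysomal) in those of METTL7A1 cells. It was higher in the polysomes of both, by 0.48 ± 0.15 (SE, adjusted p = 0.012) and 0.77 ± 0.15 (SE, adjusted p = 0.00022). Tra2b passed the test in METTL7A1 cells, where it read 81.6, 121 and 116 CPM (sub-polysomal) and 138, 154 and 144 CPM (polysomal) (0.45 ± 0.18 SE, adjusted p = 0.041, with 0.18 in mock cells). Elavl1, which encodes the mRNA-stabilizing protein HuR, read 105, 145 and 157 CPM (sub-polysomal) and 167, 186 and 174 CPM (polysomal) in METTL7A1 cells (0.37 ± 0.16 SE, adjusted p = 0.048, with 0.32 in mock cells). Khsrp encodes a KH-domain protein of mRNA decay and was also an mRNA that the study followed by qRT-PCR. It read 63.8, 68.3 and 61.2 CPM (sub-polysomal) and 68.0, 66.4 and 61.8 CPM (polysomal) in mock pools and 62.7, 51.9 and 59.3 CPM (sub-polysomal) and 54.7, 71.0 and 55.1 CPM (polysomal) in METTL7A1 pools. No pair of groups compared was free of overlap, its sign in mock cells turned with the scaling, and its changes were 0.02 ± 0.14 (SE, adjusted p = 0.91) with an interval from -0.27 to 0.32, and 0.06 ± 0.14 (SE, adjusted p = 0.73) with an interval from -0.23 to 0.35. With offsets for GC content the change in METTL7A1 cells was 0.46 and passed. Ptbp2 (-0.58 and -0.00) and Ptbp3 (0.60 and 0.55) did not pass the test.

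By the stricter rule of the study for RNA-Seq (adjusted p below 0.01 and a log2 change beyond 1.5), no member was called in mock cells and 2, Hnrnpa1 and Hnrnpa2b1, were called higher in METTL7A1 cells. The study stated that rule for METTL7A1 against mock cells in total RNA, not for these pools. For comparison, that rule took 0.687% of all genes as higher and 6.86% as lower in mock polysomes, and 1.76% as higher and 10.3% as lower in METTL7A1 polysomes. Without mock letter B, 10 members in place of 17 passed the main test in mock cells. The 8 calls that held there in all 15 alternative fits were Hnrnpa1, Hnrnpa2b1, Hnrnpd, Hnrnpf, Hnrnph2, Hnrnpul2, Ptbp1 and Srsf9. In METTL7A1 cells 15 calls held in all 15 alternative fits, which were 13 hnRNP mRNAs, Srsf1 and Tra2a. How many of all genes tested held in the same fits was not counted for either kind of cells. Hnrnpul1, Hnrnpab, Hnrnpll, Srsf5, Srsf6, Elavl1 and Tra2b were each lost in several alternative fits in METTL7A1 cells. Srsf11 was lost without letter D. Offsets for GC content left the count there at 24 but exchanged 6 members. Srsf9, Srsf5, Srsf6, Hnrnpll, Elavl1 and Tra2b were lost, and Hnrnpa0, Hnrnpl, Khsrp, Ptbp1, Srsf3 and Srsf4 were gained. Of those gained, Srsf3 had a negative change in the main fit (-0.17) and the others had positive ones.

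**Figure D2:**
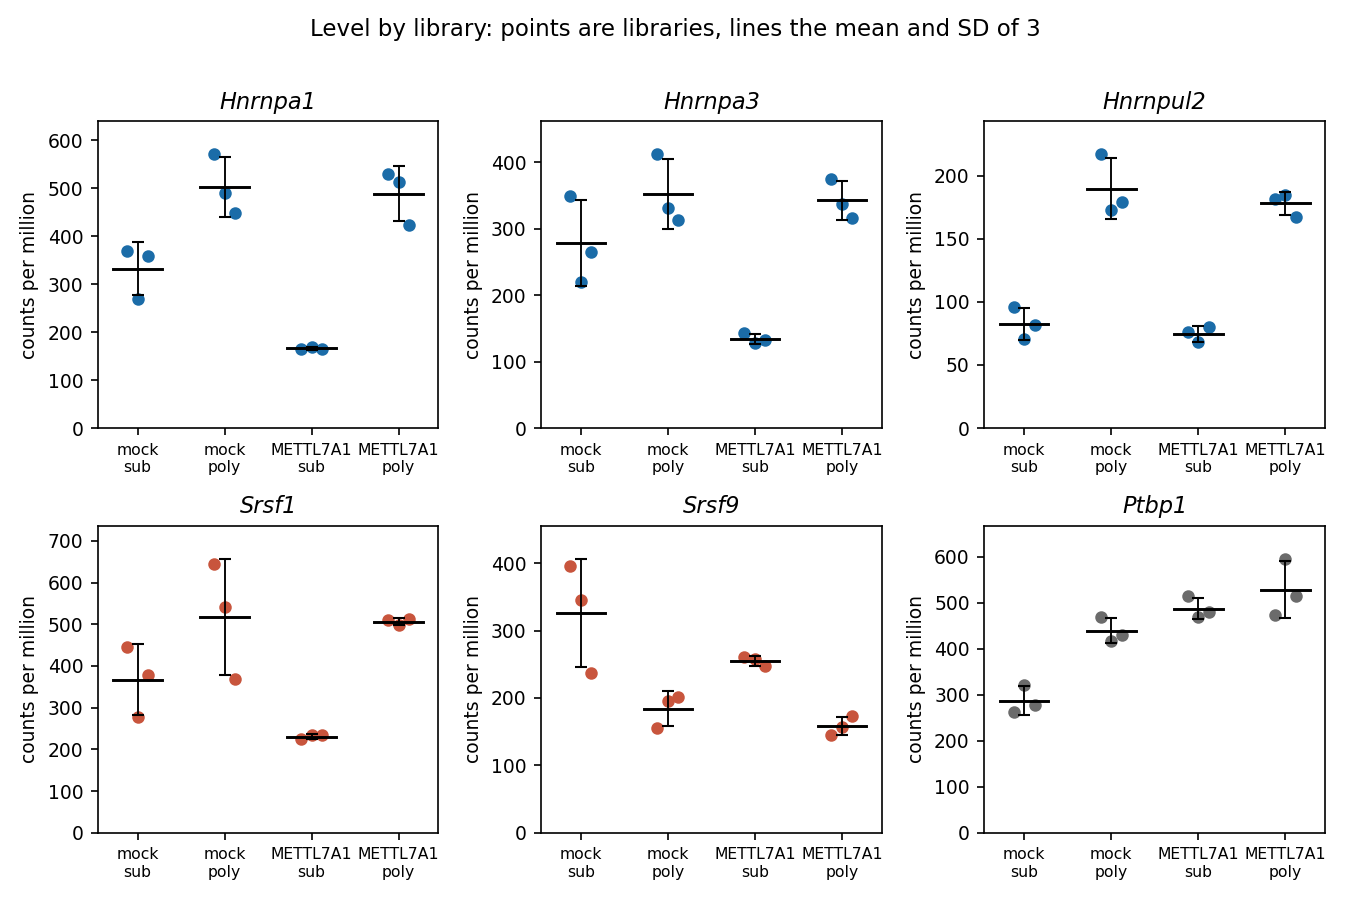
CPM (y axis) of 6 members in each of the 12 libraries, by group (x axis), with points for libraries and black lines for the mean and SD of 3. Hnrnpa1, Hnrnpa3 and Srsf1 are lowest in METTL7A1 sub-polysomal RNA, Srsf9 is higher in sub-polysomal than in polysomal RNA of both kinds of cells, and Ptbp1 is lowest in mock sub-polysomal RNA.

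The families were also summed within each library. The 20 hnRNP genes together took 5663, 4276 and 4366 CPM in mock sub-polysomal and 7710.5, 6392 and 5780.3 CPM in mock polysomal libraries. In METTL7A1 cells the sums were 3284, 3377 and 3435 CPM in sub-polysomal and 6385, 6521 and 6075 CPM in polysomal RNA. Polysomal libraries were thus all higher, and the METTL7A1 sub-polysomal libraries were the lowest. SR sums overlapped between the pools of mock cells, at 2922, 2471 and 2626 CPM (sub-polysomal) and 2980.4, 2729.6 and 2244 CPM (polysomal). In METTL7A1 cells they did not overlap, at 2145, 2362 and 2329 CPM (sub-polysomal) and 2493, 2567 and 2691 CPM (polysomal). The METTL7A1 sub-polysomal SR sums were also all below the mock sub-polysomal ones. The ratio of the hnRNP sum to the SR sum was 1.78 ± 0.144 (SD, n = 3) in mock sub-polysomal and 2.5 ± 0.138 in mock polysomal RNA, and 1.48 ± 0.0506 and 2.45 ± 0.170 in METTL7A1 cells. It did not overlap between the pools in either. In sub-polysomal RNA the METTL7A1 libraries lay between 1.43 and 1.53 and the mock libraries between 1.66 and 1.94, while in polysomal RNA the genotypes overlapped. No test was made of these sums, since the members were chosen with results of these data known.

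**Figure D3:**
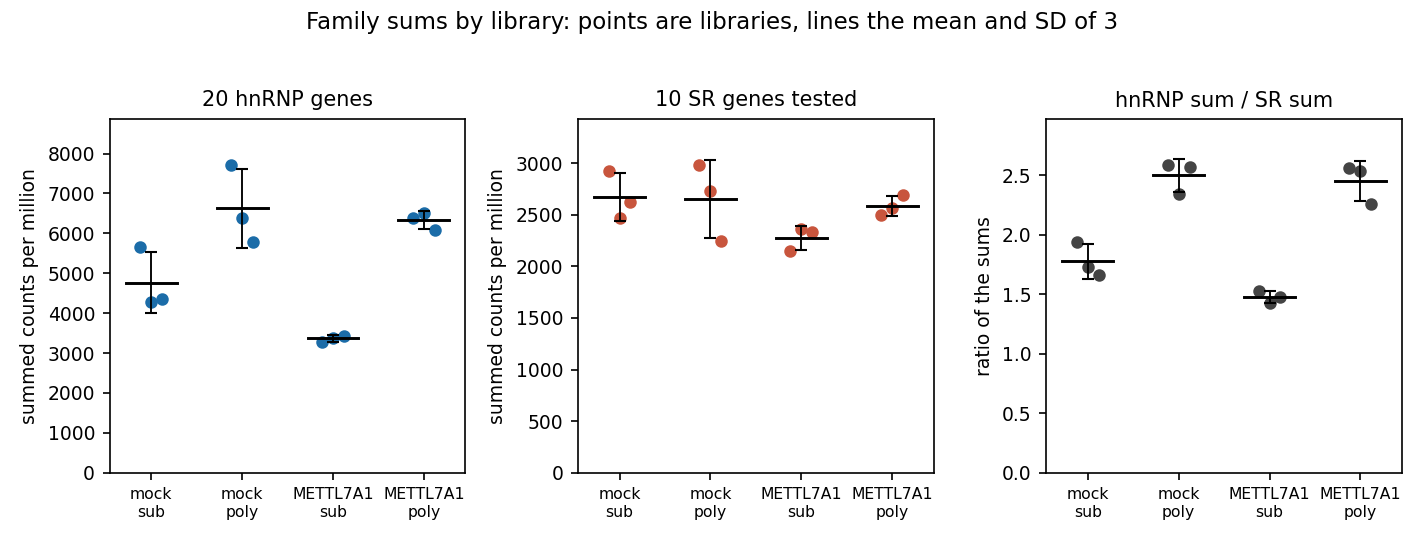
Summed CPM of hnRNP genes (left) and SR genes (middle) and the ratio of both sums (right) in each library, by group, with points for libraries and black lines for the mean and SD of 3. The ratio is lowest in METTL7A1 sub-polysomal RNA, at 1.43 to 1.53, and lies between 2.26 and 2.59 in all 6 polysomal libraries.

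The second comparison asked whether these mRNAs differed between METTL7A1 and mock cells within 1 pool. In sub-polysomal RNA 17 of 37 members were lower in METTL7A1 cells and 1, Ptbp1, was higher, whereas 14.5% of all genes were lower and 16.8% higher by the same test. The lower members were 11 of 20 hnRNP mRNAs, 5 of 10 SR mRNAs and Tra2a. Median log2 changes were -0.54 for hnRNP, -0.42 for SR mRNAs and -0.00 for all genes. All 3 METTL7A1 libraries were below all 3 mock libraries for 21 members and above them for 2, beside 20.5% and 23.5% of all genes. No member was called by the stricter rule, which took 2.76% of all genes.

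The largest falls were those of Hnrnpa3 and Hnrnpa1. Hnrnpa3 read 349, 220.3 and 266 CPM in mock and 143, 127 and 132 CPM in METTL7A1 sub-polysomal libraries, a log2 change of -1.05 ± 0.17 (SE, adjusted p = 0.00018). Hnrnpa1, with the values given above, changed by -1.00 ± 0.16 (SE, adjusted p = 0.00016), which is 2.00-fold lower. For both, the METTL7A1 libraries were close together and far below the mock ones. Then came Hnrnpd (-0.87 ± 0.20 SE, adjusted p = 0.0024), Hnrnpf (-0.76 ± 0.18 SE, adjusted p = 0.0031) and Hnrnpa2b1 (-0.76 ± 0.18 SE, adjusted p = 0.0036). The 6 other hnRNP mRNAs that fell were Hnrnph3 (-0.74), Hnrnpdl (-0.67), Hnrnpm (-0.64 ± 0.18 SE, adjusted p = 0.012), Hnrnph1 (-0.56), Hnrnpc (-0.51) and Hnrnpul1 (-0.43). By type, 5 of 7 A/B-type, 3 of 4 F/H-type and 1 of 3 U-type mRNAs fell. Hnrnpul2, Hnrnpu, Hnrnpa0, Hnrnpl, Hnrnpab, Hnrnpk, Hnrnph2, Hnrnpll and Hnrnpr did not pass the test, with log2 changes from -0.57 (Hnrnph2) to 0.03 (Hnrnpr).

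Among SR mRNAs the log2 changes of those that fell lay between -0.67 and -0.50. Srsf1, with the values given above, had -0.67 ± 0.19 (SE, adjusted p = 0.013). Srsf11 read 105, 82.8 and 144 CPM in mock and 49.7, 79.9 and 84.4 CPM in METTL7A1 sub-polysomal libraries, which overlapped (-0.64 ± 0.21 SE, adjusted p = 0.026). Srsf5 read 173, 123 and 103 CPM in mock and 87.9, 82.1 and 90.1 CPM in METTL7A1 cells, without overlap (-0.60 ± 0.16 SE, adjusted p = 0.0077). Srsf4 changed by -0.57 ± 0.16 (SE, adjusted p = 0.010). Srsf10, a splicing repressor when dephosphorylated, read 132, 98.5 and 129 CPM in mock and 81.9, 79.7 and 92.1 CPM in METTL7A1 cells (-0.50 ± 0.16 SE, adjusted p = 0.025). Srsf9 (-0.35), Srsf7 (-0.24), Srsf2 (-0.13), Srsf6 (-0.12) and Srsf3 (0.25) did not pass the test, although all METTL7A1 libraries of Srsf3 were above the mock ones.

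Ptbp1 was the only member called higher, among 6 with a log2 change above 0. Its METTL7A1 sub-polysomal libraries were all above the mock ones, by 0.76 ± 0.15 (SE, adjusted p = 0.00071), a 1.70-fold rise. Tra2a was lower, with -0.49 ± 0.15 (SE, adjusted p = 0.019), while Khsrp changed by -0.15 ± 0.15 (SE, adjusted p = 0.45) with an interval from -0.46 to 0.15. With offsets for GC content the change of Khsrp was -0.57 and passed. Elavl1 (0.21), Ptbp3 (0.06), Tra2b (-0.09) and Ptbp2 (-0.63) did not pass the test. Neat1 rose between the same libraries (0.68 ± 0.24 SE, adjusted p = 0.041), from 75.1 to 162 CPM in mock to 134 to 223 CPM in METTL7A1 cells. It rose in polysomal RNA as well (0.74 ± 0.25 SE, adjusted p = 0.0495 by the same test). The part of Neat1 in the sub-polysomal changes of the members was not tested.

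The sub-polysomal counts depended on single libraries and on scaling. Without letter D 11 and without letter E 10 members passed, and 8 did so after scaling each library to Actb, which moves the median of all genes from -0.00 to 0.26. Under that scaling 12 of the 18 calls were lost, all 5 SR mRNAs among them. Elavl1 and Srsf3 were gained, whose values in the main fit were positive (0.21 and 0.25), unlike those of the lost calls. Across protein-coding genes tested the sub-polysomal change followed GC content (rho = 0.44). With offsets for GC content Hnrnpc, Hnrnph1, Srsf5, Srsf10, Srsf11 and Tra2a did not pass, while Elavl1, Hnrnpl, Khsrp, Srsf3 and Srsf9 did. In the main fit the gained members had changes of both signs: 0.21 (Elavl1), 0.25 (Srsf3), -0.28 (Hnrnpl), -0.15 (Khsrp) and -0.35 (Srsf9). The 6 calls that held in all 14 alternative fits were Hnrnpa1, Hnrnpa3, Hnrnpd, Hnrnpf, Hnrnph3 and Ptbp1. How many of all genes tested held in the same fits was not counted.

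In polysomal RNA no member passed the test between METTL7A1 and mock cells. By the same edgeR test 0 of 37 members passed, and none had an unadjusted p below 0.05, whereas 18% of all genes passed. DESeq2 and limma-voom also called 0 members. The medians were -0.07 for hnRNP and -0.06 for SR mRNAs. Libraries of the genotypes did not overlap for 3 members (Ptbp1, Hnrnpab and Hnrnpd), beside 36.6% of all genes. The smallest p-values belonged to Ptbp1 (0.27 ± 0.14 SE, adjusted p = 0.21), Elavl1 (0.27 ± 0.15 SE, adjusted p = 0.25) and Hnrnpa0. Hnrnpa0 read 214, 181 and 124 CPM in mock and 133, 147 and 151 CPM in METTL7A1 polysomal libraries (-0.27 ± 0.17 SE, adjusted p = 0.30). Hnrnpm had 0.16 ± 0.17 (SE, adjusted p = 0.57) and passed only without mock letter A. Khsrp had -0.12 ± 0.14 (SE, adjusted p = 0.61). The intervals were wide enough to hold moderate changes: that of Hnrnpa1 ran from -0.37 to 0.28, that of Hnrnpa3 from -0.38 to 0.30 and that of Srsf1 from -0.43 to 0.36.

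**Figure D4:**
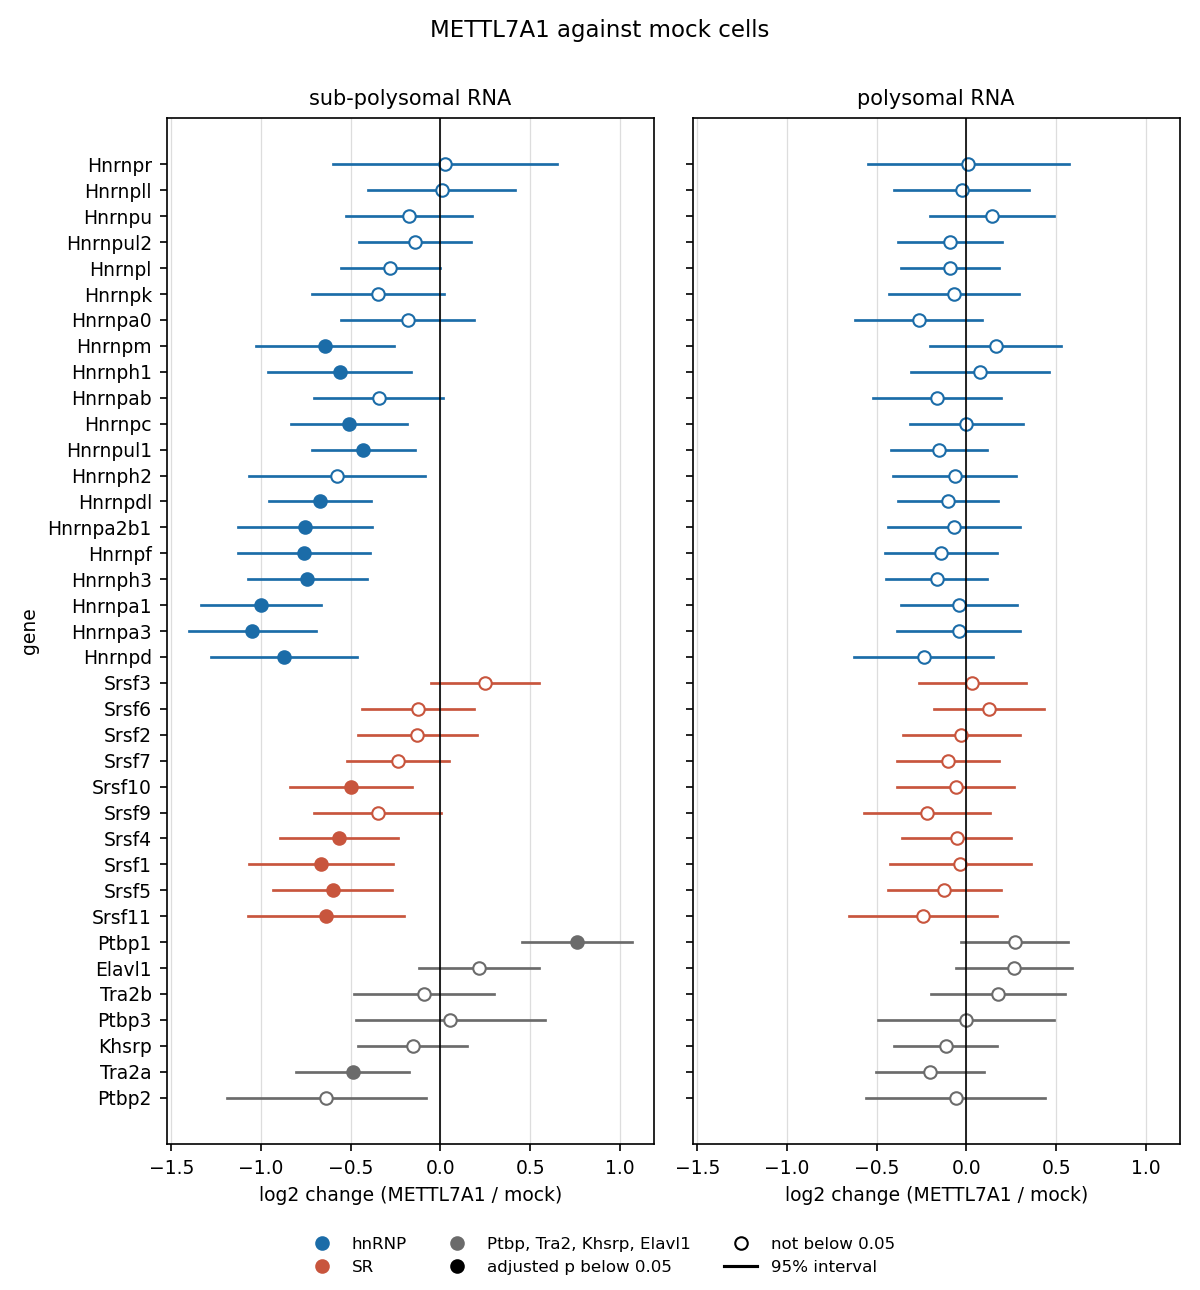
Log2 change of METTL7A1 over mock cells (x axis) for each of the 37 members tested (y axis), in sub-polysomal RNA (left) and polysomal RNA (right). Points are fitted values from 3 libraries per group, filled where the adjusted p was below 0.05, and lines are 95% intervals: 17 members lie below 0 and Ptbp1 lies above 0 with filled points on the left, and no point is filled on the right.

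The third comparison was the shift, the polysomal over sub-polysomal change of METTL7A1 cells minus that of mock cells, which tests the difference between the cells directly. No member passed it, and neither did any of the 12224 genes (0%), although 14 members and 1911 genes had an unadjusted p below 0.05. The median shift was 0.51 for hnRNP, 0.32 for SR mRNAs and -0.01 for all genes. Values lay above 0 for 17 of 20 hnRNP and 9 of 10 SR mRNAs, beside 6036 of 12224 genes. Across protein-coding genes tested the shift fell with GC content (Spearman rho -0.48, and -0.14 across the 37 members). Both families had a lower median GC content than all protein-coding genes, and the part of GC content in the shift was not tested. Hnrnpa3 had 1.01 ± 0.24 (SE, adjusted p = 0.11), Hnrnpa1 0.96 ± 0.22 (SE, adjusted p = 0.11) and Hnrnpm 0.81 ± 0.25 (SE, adjusted p = 0.14). Hnrnpa1 and Hnrnpa3 were called in 3 alternatives, namely DESeq2, which also called Hnrnpdl, the fit without a filter on low counts, and the fit without mock letter A, which also called Hnrnpm. How many of all genes these 3 fits called was not counted. Srsf1 had 0.63, Srsf5 0.48, Srsf11 0.39 and Srsf6 0.25. Ptbp1 had the lowest value, -0.49 ± 0.20 (SE, adjusted p = 0.25), and Khsrp had 0.04 ± 0.20 (SE, adjusted p = 0.95).

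Other genes of the splicing machinery were described from lists, whose median log2 changes are given as mock polysomes, METTL7A1 polysomes and METTL7A1 against mock sub-polysomal RNA, beside 0.05, 0.06 and -0.00 for all genes tested. The medians were 0.21, 0.49 and -0.00 for hnRNP proteins with other names, -0.18, -0.02 and -0.19 for SR protein kinases, and 0.22, 0.40 and -0.19 for SR-related proteins. They were 0.09, 0.25 and 0.08 for the core spliceosome, 0.49, 0.70 and -0.29 for other regulators of alternative splicing, and 0.19, 0.31 and -0.09 for nonsense-mediated decay factors. The counts of passing genes below need the shares over all 12224 genes beside them. Mock polysomes had 23.3% passing upward and 23.7% downward, and METTL7A1 polysomes had 30% and 29.3%. Between genotypes, 16.8% passed upward and 14.5% downward in sub-polysomal RNA, and 18% passed in either direction in polysomal RNA. Whether any list departed from these shares was not tested. hnRNP proteins with other names (11 genes) had 3 members higher in mock polysomes, among them Tardbp (0.91) and Syncrip (0.86), and none lower. In METTL7A1 cells 6 were higher, among them Taf15 (1.58) and Tardbp (1.35), and Cirbp was lower (-0.41). In sub-polysomal RNA of METTL7A1 against mock cells Taf15 (-1.55) and Ewsr1 (-0.69) were among the genes that were lower and Pcbp2 (0.51), a poly(C) binding protein, was higher. In polysomal RNA Rbmx (0.73) and Pcbp2 (0.44) were higher.

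Of the 6 kinases that phosphorylate SR proteins none was called higher in polysomes. Clk4 (-1.22 in mock and -0.78 in METTL7A1 cells) and Clk1 (-0.84 and -0.60) were lower there in both kinds of cells. Srpk2 was lower in sub-polysomal RNA of METTL7A1 cells (-0.72), and no kinase passed the test in polysomal RNA. Among 17 SR-related proteins 4 were higher and 1 lower in mock polysomes, with Scaf11 (0.80), Luc7l2 (0.59) and Srrm1 (-0.59) the largest, and 8 were higher and none lower in METTL7A1 polysomes, led by Luc7l3 (1.07), Scaf11 (1.05) and Luc7l2 (1.01). Of the same 17, 6 were lower and 2 higher in METTL7A1 sub-polysomal RNA, led by Rbm25 (-0.91), Srek1 (-0.88) and Pnn (-0.63), and Luc7l was higher in polysomal RNA (0.40).

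The core spliceosome went both ways. Of 32 genes, 11 were higher and 6 lower in mock polysomes, and 15 were higher and 6 lower in METTL7A1 polysomes. The lower ones included Snrpe (-1.68 and -1.70) and Snrpg (-1.56 and -1.80), which encode small ring proteins of the snRNPs, while the higher ones included Prpf19 (1.37 and 1.24) and Prpf6 (1.14 and 1.70). In METTL7A1 sub-polysomal RNA 5 were lower and 3 higher, led by Prpf3 (-0.87), Snrpb (0.73) and Prpf4 (-0.68), and Prpf4 was lower in polysomal RNA (-0.42). Other regulators of alternative splicing had 17 of 19 genes tested, since Nova1 and Nova2 had 0 and 1 counts. In polysomes 8 were higher in mock cells, led by Celf1 (1.14), Nono (1.04) and Rbm10 (1.01), and 11 in METTL7A1 cells, led by Nono (1.69), Khdrbs1 (1.44) and Pspc1 (1.20), and none was lower in either. In METTL7A1 sub-polysomal RNA 4 were lower and 1 higher, with Nono at -0.82, and the epithelial regulators Esrp1 (-0.65 in sub-polysomal and -0.50 in polysomal RNA) and Esrp2 (0.65 and 0.60) moved in opposite directions in both pools.

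Nonsense-mediated decay factors (10 genes) had 1 gene, Upf1, higher in mock polysomes (0.74). In METTL7A1 polysomes 5 were higher, led by Smg1 (1.26), Upf3b (1.00) and Upf1 (0.56), and 2 were lower. In METTL7A1 sub-polysomal RNA 3 were lower and 2 higher, the lower ones being Smg1 (-0.88), Upf2 (-0.69) and Upf3a (-0.57), and none passed in polysomal RNA. No gene of the 6 lists passed the test of the shift.

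The families also differed in their annotation. Transcripts of the class degraded by nonsense-mediated decay are annotated for 10 of 20 hnRNP genes and 9 of 10 tested SR genes, beside 30.0% of protein-coding genes tested, and the deposited counts do not separate them from the coding transcripts. Coding length had a median of 729 bases in SR genes, 1304 bases in hnRNP genes and 1374 bases in all protein-coding genes tested. Across all protein-coding genes tested the polysomal over sub-polysomal change rose with coding length (Spearman rho 0.55 in mock and 0.54 in METTL7A1 cells), and across the 37 members rho was 0.34 and 0.20. These values describe genes that share the same libraries, and the part of coding length in the difference between hnRNP and SR mRNAs was not tested. Median GC content of the principal transcript was 45.1% for hnRNP, 43.2% for SR and 50.5% for all protein-coding genes tested. Across protein-coding genes tested the polysomal over sub-polysomal change had a Spearman rho with GC content of -0.10 in mock and -0.33 in METTL7A1 cells. Across the 37 members rho was -0.13 and -0.17, and the part of GC content was not tested. A first base C followed by at least 4 further pyrimidines, the start that marks terminal oligopyrimidine mRNAs, was annotated for 2 hnRNP genes, Hnrnpa3 and Hnrnpa0, and for no SR gene, beside 2.24% of all protein-coding genes tested.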

How the data were processed

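Both gradient pools of mock and METTL7A1 4T1 cells were analysed by RNA-Seq, with 3 libraries in each of 4 groups as labelled. The kit was stranded and removed rRNA. The deposited values are raw counts by gene. According to the submitters' processing notes, the authors used STAR 2.5.3a and featureCounts on mm10 and GRCm38. The strand setting and the handling of reads that match several genes are not given in the sources used here, and reads shared with pseudogenes or overlapping genes may be split or lost.

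A gene entered the tests if 3 or more libraries reached 1 CPM. The model in edgeR 4.0.16 (R 4.3.3), with TMM factors, held all 12 libraries and gave each group its own mean. Quasi-likelihood tests of the contrasts were corrected by Benjamini-Hochberg across 12224 genes. Passing means an adjusted p below 0.05. Alternatives were the threshold of the study, DESeq2 1.42.0, limma-voom (limma 3.58.1), RLE factors, scaling to Actb, other filters, GC offsets, fits of the compared groups only, and leaving out each letter.

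Letters are shared by the pools of 1 genotype. Deviations of same-lettered pools from their group means correlated by r between -0.29 and 0.11, so the letters were not treated as pairs. No 2 replicates agreed within sampling noise. The members and gene lists were chosen with earlier results of these data known. Values by library were given for up to 5 passing members per family, direction and contrast with the largest change and a mean of at least 5 CPM (where fewer than 3 passed, the 3 smallest p-values), and for Khsrp and Hnrnpm. For each list up to 3 passing genes were named, and further names were chosen after their values were seen. Values of 1 listed gene are not reported here. Annotation came from GENCODE vM21. The fit was tested on simulated data. The limit given for a count of 0 covers counting error only.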

Additional observations from a re-analysis of the deposited data

How the results depend on the processing

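The difference between the hnRNP and the SR median kept its sign in all settings run for 4 of the 5 comparisons. Between genotypes in polysomal RNA it lay between -0.05 and 0.06 and changed sign. Counts of members past the test stayed within 1.5 times of the value reported unless named. The rule of adjusted p below 0.01 with a log2 change beyond 1.5 left 0 members in mock polysomes, 2 in METTL7A1 polysomes and 0 in sub-polysomal RNA. DESeq2 called 3 and the fit without the filter 2 members for the shift, and scaling to Actb left 8 in sub-polysomal RNA. The shares of all genes that these fits called were not counted. Leaving out 1 letter gave 10 to 19 members in mock polysomes (10 without mock B), 16 to 25 in METTL7A1 polysomes, 0 to 3 for the shift (3 without mock A), 0 to 1 in polysomal RNA between genotypes (1 without mock A) and 10 to 17 in sub-polysomal RNA (11 without D and 10 without E). For the median difference in METTL7A1 polysomes these fits gave 0.61 to 0.87, and placing Ptbp genes with hnRNP and Tra2 genes with SR gave 0.53. In sub-polysomal RNA they gave -0.26 to -0.031. With the letter as a replicate block the counts were 19 in mock polysomes, 26 in METTL7A1 polysomes and 0 for the shift. Letters did not act as pairs, and no block was possible between genotypes, which share no letters.

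Khsrp changed sign in some settings, and with GC offsets it passed the test in METTL7A1 polysomes (0.46) and in sub-polysomal RNA between genotypes (-0.57). In mock polysomes it was -0.018 with RLE factors, -0.017 with DESeq2, -0.056 scaled to Actb and -0.0082 with at least 10 counts in every library. Scaled to Actb it was -0.19 in METTL7A1 polysomes, -0.13 for the shift and 0.11 in sub-polysomal RNA. Without 1 letter it ranged from -0.053 to 0.058 in mock polysomes, -0.15 to 0.18 in METTL7A1 polysomes, -0.17 to 0.16 for the shift and -0.21 to -0.079 in sub-polysomal RNA. The cause of these changes was not tested. Of the other values of single genes, 644 kept their direction and side of the threshold, 76 lost the call and 12 gained it. Scaling to Actb also moved the median of all genes to -0.18 in METTL7A1 polysomes and -0.17 for the shift. For Srsf12, which had no count in any of the 12 libraries, depth sets the limit on its level, and libraries held 1817520 to 6966156 counts.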
